A study of Sus scrofa with 10 samples.

Results

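The Wnt and Notch signalling genes of the developing pig entorhinal cortex were taken from the count files by symbol alone. They comprise every gene named WNT, FZD, SFRP, DKK or RSPO with a number, together with DLL1, DLL3, DLL4, JAG1, JAG2, NOTCH1 to NOTCH3, HES5, HEY1, HEY2 and LFNG. Of the 22452 genes in the files, 51 met this rule, namely 17 WNT ligands, 10 FZD receptors, 8 secreted inhibitors, 4 RSPO agonists, 5 Notch ligands, 3 Notch receptors, the modifier LFNG and 3 Notch targets. The fetuses were crossbred pigs from a farm. The labels call the other animals adult, and the paper's methods describe adult sows killed for another study. Its results instead give these samples a postnatal age in days. The conflict was not resolved, and the word adult follows the labels. The 10 libraries were made on the 10X Genomics platform, either from papain-dissociated cells of fresh tissue or from sorted nuclei of frozen tissue. Whole cells were taken at embryonic day (E) 50 (library E50_1, 3 pooled brains), at E60 (E60_1 and E60_2 of 1 brain each, E60_3 of 2 brains), at E70 (E70_1 of 2 brains by its label, E70_2 and E70_3 of 1 brain each) and from 1 adult brain. Nuclei were taken from 1 brain at E70 and 1 adult brain. No treatment or genetic change distinguished the groups. E60 and E70 whole cells had 3 libraries each and every other group had 1, so only E60 and E70 were compared with a test. All positions below are on Sscrofa11.1.

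Wnt ligands are secreted lipid-modified proteins that bind Frizzled receptors, encoded by the FZD genes, on nearby cells. SFRP proteins bind the ligands, most DKK proteins act on the LRP co-receptors, and R-spondins, encoded by the RSPO genes, keep the receptors at the membrane. In Notch signalling a membrane-bound DLL or JAG ligand triggers release of the intracellular part of a NOTCH receptor on the neighbouring cell, which joins RBPJ on DNA and raises targets such as HES5, HEY1 and HEY2. In the developing brain the pathways are known for patterning the medial border of the cortex, for maintaining progenitors and for building vessels and their barrier.

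The files held 28229 cells, from 493 to 8171 per library, with 2336865 to 55755512 UMIs (unique molecular identifiers, each standing for a captured transcript) per library and a median of 690 to 9403 UMIs per cell. From 27 to 231 barcodes of a library also occurred in another. E60_1 and E60_2 stood apart from the other fetal libraries. EMX1 and LHX2, genes of the cortex, were at 0.482 and 3.53 CPM (UMIs of the gene among 1000000 UMIs) in E60_1 and at 0.511 and 1.89 CPM in E60_2, against 17.2 and 93.6 CPM in E60_3. Of 4 midbrain genes, EN2 was at 37.4 and 14.0 CPM in E60_1 and E60_2 and at 0.735 CPM in E60_3, and PAX3 at 11.2 and 77.8 CPM against 2.55 CPM. PAX7 did not follow them, with 3.74, 29.96 and 4.48 CPM in these libraries and 30.2 and 27.9 CPM in E70_1 and E70_2, and EN1 reached at most 0.179 CPM in whole cells. E50_1 also held EN2 (24.1 CPM) and PAX3 (24.1 CPM). E60_1 and E60_2 held 0 and 2 excitatory neuron-like cells, against 1383 in E60_3. Values of the E60 libraries are therefore given one by one.

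HEY2 and HES5 are known targets of RBPJ, and LFNG modifies NOTCH, so the sequences before these 3 genes are shown. Each run is the 250 bases upstream of the RefSeq gene start on Sscrofa11.1, from 5′ to 3′ on the strand of the gene. Capitals mark TGGGAA, the core of the RBPJ motif, or TTCCCA where it lies on the other strand. The windows are HEY2 (chr1:37231322-37231571, minus strand), HES5 (chr6:64410542-64410791, minus strand) and LFNG (chr3:1720794-1721043, plus strand).
HEY2: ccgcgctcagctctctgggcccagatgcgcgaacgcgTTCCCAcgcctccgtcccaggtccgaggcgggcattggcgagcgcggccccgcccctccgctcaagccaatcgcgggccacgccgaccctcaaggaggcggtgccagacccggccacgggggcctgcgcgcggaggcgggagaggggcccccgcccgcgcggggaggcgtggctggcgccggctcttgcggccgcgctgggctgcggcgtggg
HES5: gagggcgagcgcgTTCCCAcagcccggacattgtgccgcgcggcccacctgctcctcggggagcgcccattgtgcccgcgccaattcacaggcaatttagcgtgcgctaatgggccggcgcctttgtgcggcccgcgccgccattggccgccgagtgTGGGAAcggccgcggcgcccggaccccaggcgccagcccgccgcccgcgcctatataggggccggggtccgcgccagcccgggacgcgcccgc
LFNG: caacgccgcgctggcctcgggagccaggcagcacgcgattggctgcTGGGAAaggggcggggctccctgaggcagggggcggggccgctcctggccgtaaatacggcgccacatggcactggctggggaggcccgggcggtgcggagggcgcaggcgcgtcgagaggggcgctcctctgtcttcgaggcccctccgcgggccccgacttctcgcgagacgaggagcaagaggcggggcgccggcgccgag

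HEY2 held 1 match, 213 bases before the start, HES5 held 2 at 237 and 93 bases, and LFNG held 1 at 204 bases. Of the 51 genes, 12 held a match in this window, and of 20638 protein-coding genes of the annotation 24.6% did, counting both strands. The letters CTTTGA, part of the TCF/LEF motif of the Wnt pathway, were found before 3 of the 51 genes, which were DKK1, FZD5 and WNT8B, and before 10.8% of all genes. A match describes the letters and not binding.

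Cells were clustered without the 51 genes, and a cluster was named from fixed marker lists only, so classes carry the ending -like. All 9 endothelial markers found in the files were highest in the class of that name, as were all 9 microglia and all 7 oligodendrocyte markers, 7 of 8 mural, 7 of 8 interneuron and 4 of 5 fibroblast markers. The fibroblast exception was LUM, with a median of 218 CPM there and 574 CPM in mural-like cells. The counts were lower for the astrocyte and radial glia-like (8 of 11), excitatory neuron-like (6 of 9), intermediate progenitor-like (4 of 7) and oligodendrocyte precursor-like (3 of 6) classes. Since the clusters were named from these same lists, the counts describe the classes and are no test of the names. A level is the CPM of the UMIs summed over the cells of a class in a library with at least 20 such cells, and a median runs over the whole cell libraries. Mural-like cells reached 20 in E50_1, E60_1, E60_2 and the adult (28, 105, 32 and 51 cells), and fibroblast-like cells in E50_1 and the 3 E60 libraries (131, 29, 29 and 122 cells). Differences between classes carry no test, since classes are clusters of the same cells.

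Wnt and Notch genes were highest mainly in fibroblast-like and endothelial-like cells. The class medians run over unlike sets of libraries, and those of fibroblast-like cells include no E70 or adult library. A median of at least 10 CPM in some class was reached by 34 of the 51 genes. Of these, 14 were highest in fibroblast-like cells and 8 in endothelial-like cells, where 7.63% and 9.69% of all 13017 genes of that level were highest. A further 3 were highest in mural-like cells (6.78% of all genes), 3 in oligodendrocyte precursor-like cells (9.53%), 2 each in astrocyte and radial glia-like (6.88%) and interneuron-like cells (7.01%), and 1 each in other neuron-like (13.3%) and oligodendrocyte-like cells (14.2%). The count was 0 in excitatory neuron-like, intermediate progenitor-like, microglia-like and erythroid-like cells, where 6.21%, 9.03%, 9.34% and 0.415% of all genes were highest. The count in the astrocyte and radial glia-like class depended on the clusters, with 9 members when clusters were made within each library and 8 without batch correction. The 17 genes under 10 CPM were 10 WNT ligands, FZD8, FZD9, DKK1, DKK4, RSPO1, RSPO4 and HES5. HES5 had 9 UMIs in the 28229 cells, WNT1 had 1, WNT8A 8 and FZD8 12, so their distribution was not detectable at this depth.

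**Figure D1:**
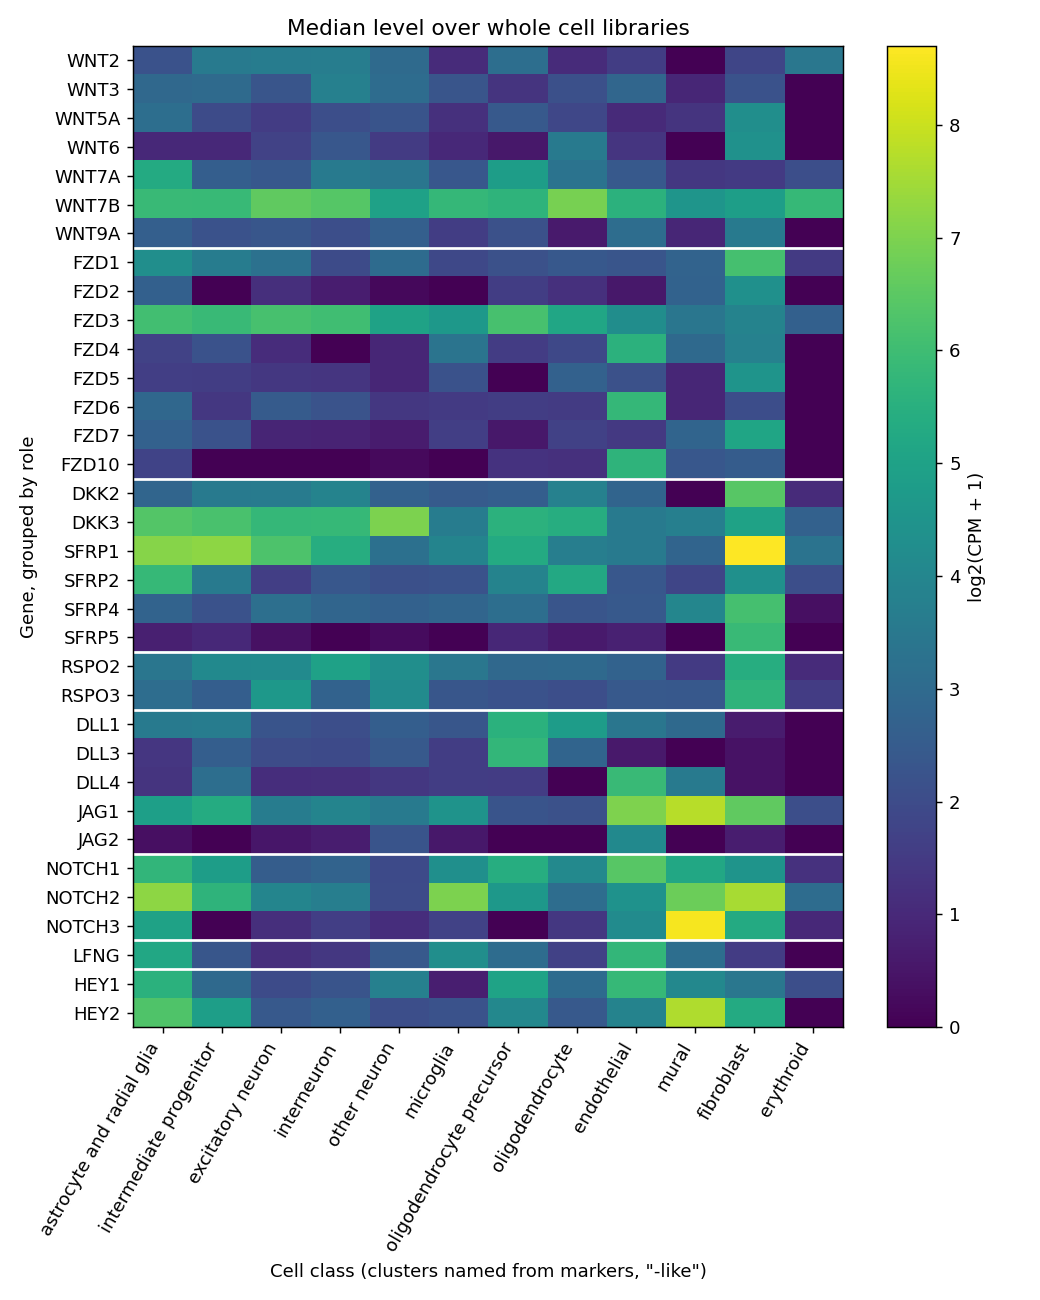
Median level of the 34 genes that reached 10 CPM in a class (rows, grouped by role) in 12 cell classes (columns), with colour giving log2(CPM + 1) of the median over whole cell libraries with at least 20 cells of the class. SFRP1 in fibroblast-like cells (415 CPM) and NOTCH3 in mural-like cells (379.9 CPM) stand out, while WNT7B is between 22.3 and 119 CPM in every class.

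Among the Wnt ligands, WNT7A (chr13:70538802-70602464), which acts on brain endothelium, was highest in astrocyte and radial glia-like cells. It was at 105 CPM in E50_1, 50.04, 64.2 and 27.8 CPM in E60_1, E60_2 and E60_3, 15.6 CPM in E70_3 and 18.3 CPM in the adult, and these cells were the highest class in 5 of 6 libraries. Oligodendrocyte precursor-like cells came next, with 85.5 CPM in E50_1, 25.8 and 24.4 CPM in E60_1 and E60_2 and 29.3 CPM in E70_3. The ranges of both classes overlapped for WNT7A, and without E60_1 and E60_2 the precursor class had the higher median.

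WNT5A (chr13:37344684-37367215), a ligand known for signalling without β-catenin, had its highest median in fibroblast-like cells, with 5.31 CPM in E50_1 and 24.5, 47.9 and 12.8 CPM in E60_1, E60_2 and E60_3. It was highest there in 2 of 4 libraries, and astrocyte and radial glia-like cells held more in E50_1 (13.1 CPM) and E60_1 (31.8 CPM). WNT6 (chr15:120901471-120917359) had 28.3 CPM in E50_1 and 0, 34.9 and 12.1 CPM in E60_1, E60_2 and E60_3 in fibroblast-like cells, and WNT9A (chr2:51102757-51128346) had 14.2, 8.17, 8.71 and 12.8 CPM in the same order. WNT6 was highest in this class in 3 of 4 libraries and WNT9A in 4 of 4.

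WNT3 (chr12:17627291-17681197) had its highest median in interneuron-like cells. It was there at 10.8 CPM in E50_1, 14.8 and 6.34 CPM in E60_1 and E60_3 and 18.7, 14.96 and 5.63 CPM in E70_1, E70_2 and E70_3. Other classes were higher in 2 of the 6 libraries, so this order was loose. WNT9B, whose gene lies 27849 bases from WNT3, stayed at 0.298 to 2.30 CPM over all cells of the whole cell libraries.

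Of the 8 FZD receptors that reached 10 CPM, 3 were highest in endothelial-like cells, 4 in fibroblast-like cells and FZD3 in oligodendrocyte precursor-like cells. FZD4 (chr9:20714995-20721460), the Norrin receptor of retinal and brain vessels, was highest in endothelial-like cells in 6 of 6 libraries, at 54.3 CPM in E50_1, 38.5, 34.2 and 85.4 CPM in E60_1, E60_2 and E60_3, 87.7 CPM in E70_3 and 39.6 CPM in the adult. FZD6 (chr4:33811159-33844556), which takes part in planar cell polarity, was highest there in 6 of 6 libraries, at 55.3 CPM in E50_1, 49.7, 52.8 and 73.6 CPM in E60_1, E60_2 and E60_3, 90.4 CPM in E70_3 and 45.1 CPM in the adult. No other class had a median above 6.42 CPM for FZD6, while for FZD4 fibroblast-like cells had a median of 13.1 CPM. Both receptors were thus highest in this class in every library compared, FZD4 less exclusively.

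FZD10 (chr14:24919483-24922554) was also highest in endothelial-like cells, but in the fetal libraries only. It was at 40.5 CPM in E50_1, 94.98, 61.9 and 55.8 CPM in E60_1, E60_2 and E60_3, 43.2 CPM in E70_3 and 0.921 CPM in the adult. The adult value was 1 UMI in 66 cells (exact Poisson 95% interval 0.0233 to 5.13 CPM), and the intervals of all fetal libraries lay above it, that of the lowest, E50_1, being 32.0 to 50.4 CPM. With 1 adult library the stages could not be tested. No other class had a median above 4.84 CPM for FZD10, although fibroblast-like cells of E60_1 reached 24.5 CPM in 29 cells and astrocyte and radial glia-like cells of E60_2 reached 18.95 CPM.

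FZD1 (chr9:71346994-71356488), FZD2 (chr12:18740417-18742301), FZD5 (chr15:110913990-110921388) and FZD7 (chr15:105644164-105648860) were highest in fibroblast-like cells in 4 of 4 libraries each. FZD1 was at 66.7 CPM in E50_1 and 32.7, 87.1 and 71.2 CPM in E60_1, E60_2 and E60_3. In the same order FZD7 was at 27.1, 40.8, 43.6 and 10.1 CPM, FZD5 at 23.0, 16.3, 30.5 and 20.2 CPM and FZD2 at 21.8, 32.7, 17.4 and 2.02 CPM. E60_3 was thus the lowest library for FZD2 and FZD7 but not for FZD1.

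FZD3 (chr14:12281127-12394768), known for guiding axons, was present at similar levels in neurons and glia. Its medians were 70.7 CPM in oligodendrocyte precursor-like, 70.3 CPM in excitatory neuron-like, 65.6 CPM in astrocyte and radial glia-like and 64.2 CPM in interneuron-like cells. The ranges of these classes overlapped for FZD3, and the class of the highest median changed with the libraries and clusters used. FZD3 in the astrocyte and radial glia-like class was at 83.5 CPM in E50_1, 132, 88.7 and 41.6 CPM in E60_1, E60_2 and E60_3, 44.7 CPM in E70_3 and 47.7 CPM in the adult.

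The secreted inhibitors divided between fibroblast-like and neural cells. SFRP1 (chr17:10436414-10489773) was highest in fibroblast-like cells in 4 of 4 libraries, at 1074 CPM in E50_1 and 392, 353 and 438 CPM in E60_1, E60_2 and E60_3. It was next highest in intermediate progenitor-like cells, at 67.5 CPM in E50_1, 148 CPM in E60_3 and 185 CPM in E70_3, and in astrocyte and radial glia-like cells, with a median of 138 CPM. In excitatory neuron-like cells SFRP1 ranged from 38.3 to 97.1 CPM, so progenitors and neurons held it as well.

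SFRP4 (chr9:108404314-108414335) and SFRP5 (chr14:109120382-109125655) were highest in fibroblast-like cells in 4 of 4 libraries. SFRP4 was at 126, 73.5, 65.3 and 22.2 CPM and SFRP5 at 27.7, 57.2, 82.8 and 59.8 CPM in E50_1, E60_1, E60_2 and E60_3. DKK2 (chr8:114862056-114974327) was at 125, 49.0, 139 and 46.4 CPM in the same cells, again the highest class in 4 of 4 libraries. The order of the libraries differed from gene to gene, with SFRP4 highest in E50_1 and SFRP5 and DKK2 highest in E60_2.

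SFRP2 (chr8:75337311-75345926) was highest in the astrocyte and radial glia-like class in 5 of 6 libraries, at 118 CPM in E50_1, 67.7, 47.9 and 40.7 CPM in E60_1, E60_2 and E60_3, 41.1 CPM in E70_3 and 64.2 CPM in the adult. In E50_1 the fibroblast-like cells exceeded this with 822 CPM, against 0 to 22.2 CPM in those of the E60 libraries. DKK3 (chr2:47385244-47444664), a divergent member of its family, had its highest median in other neuron-like cells, at 189 CPM in E50_1 and 96.0, 67.1 and 158 CPM in E60_1, E60_2 and E60_3. It ranged from 47.7 to 179.5 CPM in astrocyte and radial glia-like and from 47.6 to 184 CPM in interneuron-like cells. Microglia-like cells held at most 20.6 CPM of DKK3 and endothelial-like cells at most 27.3 CPM.

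Among the R-spondins, RSPO2 (chr4:29415774-29577890) was highest in fibroblast-like cells in 4 of 4 libraries, at 40.1 CPM in E50_1 and 40.8, 43.6 and 111 CPM in E60_1, E60_2 and E60_3. Interneuron-like cells followed, at 5.22 CPM in E50_1, 0 and 32.7 CPM in E60_1 and E60_3 and 28.0, 42.4 and 55.8 CPM in E70_1, E70_2 and E70_3. RSPO3 (chr1:35985985-36066432) had its highest median in fibroblast-like cells, but its level there ran from 8.17 CPM in E60_1 and 21.5 CPM in E60_3 to 78.4 CPM in E60_2 and 246 CPM in E50_1. In other neuron-like cells it was at 293 CPM (95% interval 262 to 327) in the 35 cells of E60_3, 3.72 CPM in E60_1 and 9.87 CPM in E60_2. This class held different clusters in E60_3 and E60_1. Cluster 44, led by NDNF, CALB2 and RELN, took 45.9% of its 74 cells from E60_3 and had RSPO3 at 337 CPM over all libraries. Cluster 11, led by PENK and TAC1, took 58.7% of its 903 cells from E60_1. Excitatory neuron-like cells held 13.1 to 49.1 CPM of RSPO3.

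The Notch ligands were divided by class. DLL4 (chr1:130376720-130386411), the ligand of tip cells in growing vessels, was highest in endothelial-like cells in 6 of 6 libraries, at 55.3 CPM in E50_1, 51.6, 61.8 and 60.5 CPM in E60_1, E60_2 and E60_3, 132 CPM in E70_3 and 58.0 CPM in the adult. Its median in no other class exceeded 10.7 CPM. JAG2, whose gene has no chromosome in the annotation, was highest in the same class in 6 of 6 libraries, at 26.6, 19.8, 22.7, 10.7, 13.5 and 12.9 CPM in the same order. E70_3 was the highest library for DLL4 and E50_1 for JAG2.

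DLL1 (chr1:198815-211346) and DLL3 (chr6:48135738-48155373), a pair known from neural and glial progenitors, were instead highest in oligodendrocyte precursor-like cells in 4 of 4 libraries. DLL1 was at 55.0 CPM in E50_1, 51.7 and 40.7 CPM in E60_1 and E60_2 and 19.5 CPM in E70_3. DLL3, which acts inside the cell, was at 68.2, 38.3, 69.2 and 11.7 CPM in the same order, with E70_3 lowest for both genes.

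JAG1 (chr17:19591248-19629659) was highest in mural-like cells in 4 of 4 libraries, at 152 CPM in E50_1, 254 and 287 CPM in E60_1 and E60_2 and 175 CPM in the adult. Endothelial-like cells followed, at 124 CPM in E50_1, 182, 188 and 102 CPM in E60_1, E60_2 and E60_3, 134 CPM in E70_3 and 57.1 CPM in the adult. Fibroblast-like cells had 55.5, 114, 169.9 and 75.9 CPM in E50_1 and the 3 E60 libraries, and their range overlapped that of endothelial-like cells. In erythroid-like cells, which should lack JAG1, it did not exceed 7.45 CPM.

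Each NOTCH receptor had its highest level in another class. NOTCH1, likewise on no chromosome in the annotation, was highest in endothelial-like cells in 6 of 6 libraries, at 129 CPM in E50_1, 98.1, 99.5 and 73.6 CPM in E60_1, E60_2 and E60_3, 68.8 CPM in E70_3 and 73.7 CPM in the adult. Astrocyte and radial glia-like cells followed with 52.4, 51.8, 62.0, 25.9, 18.2 and 51.4 CPM in the same order, all below the endothelial range. NOTCH3 (chr2:62364507-62402348), the receptor of vascular smooth muscle and pericytes, was at 313 CPM in E50_1, 447 and 494 CPM in E60_1 and E60_2 and 240.2 CPM in the adult in mural-like cells. The next class, fibroblast-like cells, had a median of 38.7 CPM and a highest value of 122 CPM, below every mural value.

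NOTCH2 (chr4:100951522-101152348) was spread over several classes. It was at 144 CPM in E50_1 and 204, 174 and 218 CPM in E60_1, E60_2 and E60_3 in fibroblast-like cells and at 115 CPM in E50_1, 169, 126 and 212 CPM in E60_1, E60_2 and E60_3, 167 CPM in E70_3 and 117 CPM in the adult in astrocyte and radial glia-like cells. Its medians in microglia-like and mural-like cells were 127 and 106 CPM. The ranges of fibroblast-like, astrocyte and radial glia-like and microglia-like cells overlapped for NOTCH2, while the highest mural value (141 CPM) lay just under the lowest fibroblast value.

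HEY2 (chr1:37219887-37231321), whose upstream sequence is printed above, was highest in mural-like cells in 4 of 4 libraries, at 198 CPM in E50_1, 241 and 207 CPM in E60_1 and E60_2 and 169 CPM in the adult. These were also the cells of NOTCH3 and JAG1. The astrocyte and radial glia-like class had HEY2 at 56.7 CPM in E50_1, 99.3, 59.4 and 112 CPM in E60_1, E60_2 and E60_3, 95.6 CPM in E70_3 and 18.3 CPM in the adult, all below the mural range. HEY1 (chr4:56859640-56863807) was instead at 14.8 to 18.0 CPM in mural-like cells. It was at 74.3 CPM in E50_1, 90.2, 98.2 and 22.5 CPM in E60_1, E60_2 and E60_3, 35.1 CPM in E70_3 and 37.8 CPM in the adult in endothelial-like cells and at 78.7, 139, 63.6, 28.2, 23.6 and 18.3 CPM in the astrocyte and radial glia-like class, with libraries in the same order. Each of these classes was the higher for HEY1 in 3 of 6 libraries, so their order was not resolved.

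LFNG (chr3:1721044-1819426), a glycosyltransferase that changes which ligands NOTCH responds to, was at 45.6 CPM in E50_1, 63.7, 61.4 and 21.4 CPM in E60_1, E60_2 and E60_3, 27.0 CPM in E70_3 and 59.9 CPM in the adult in endothelial-like cells. The astrocyte and radial glia-like class had it at 26.7 CPM in E50_1, 59.0, 44.97 and 18.5 CPM in E60_1, E60_2 and E60_3, 16.7 CPM in E70_3 and 306 CPM in the adult. The adult value came from 167 UMIs in 55 cells (95% interval 262 to 356 CPM) and lay above every fetal value of LFNG in this class, with a single adult library.

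**Figure D2:**
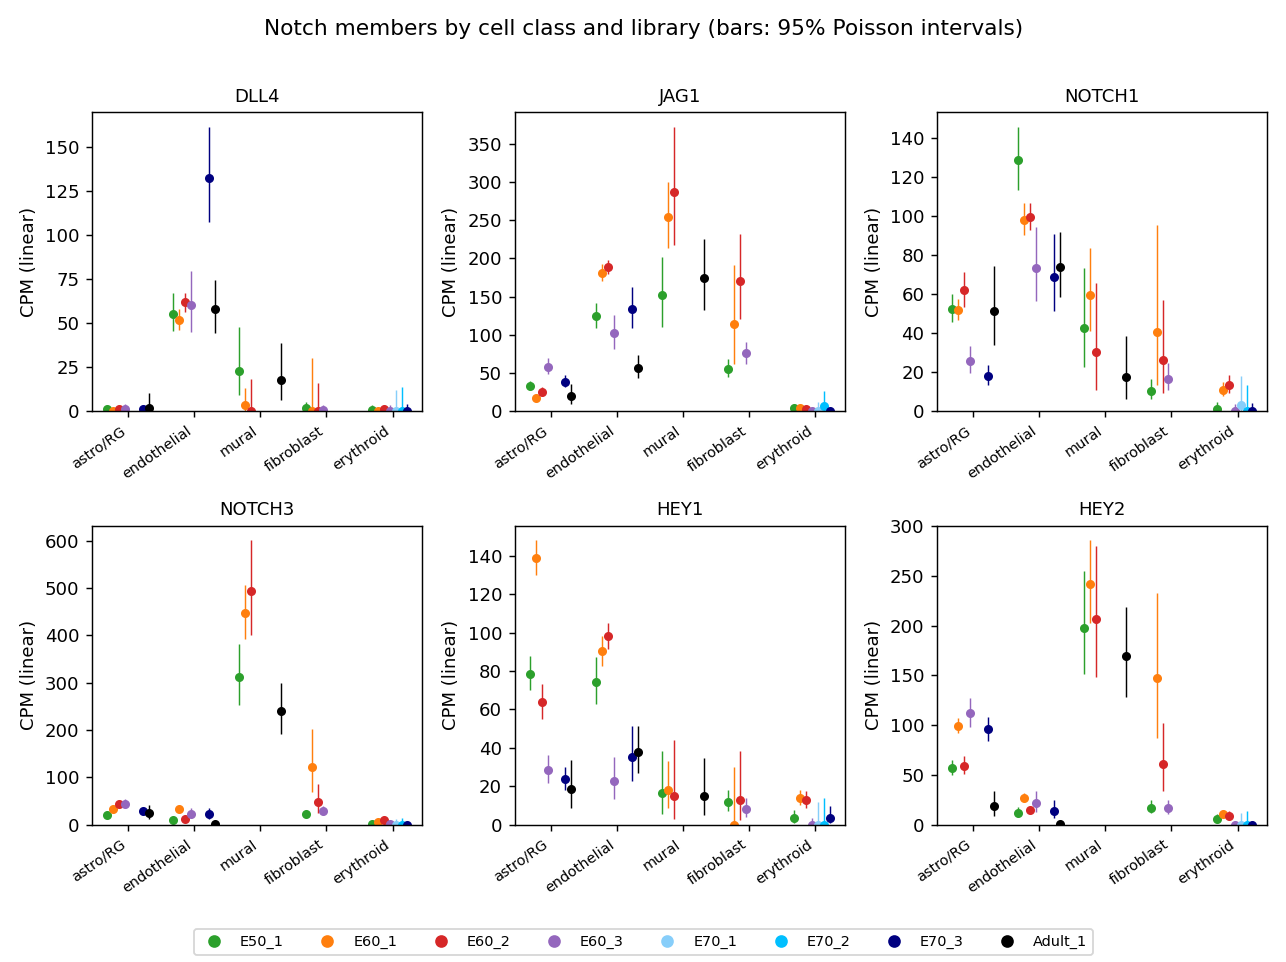
Level of 6 Notch genes (panels) in CPM on a linear axis, by cell class (groups of points) and whole cell library (colours), for libraries with at least 20 cells of the class. Bars are exact Poisson 95% intervals, which cover counting error only. NOTCH3 (240.2 to 494 CPM) and HEY2 (169 to 241 CPM) stand above the other classes in mural-like cells, and DLL4 in endothelial-like cells (51.6 to 132 CPM).

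Of the other genes of both pathways, 66 were in the files and 57 reached 10 CPM in a class. Of these 57, 13 (22.8%) were highest in endothelial-like cells, where 9.69% of all genes were, and 10 (17.5%) in intermediate progenitor-like cells (9.03%). The astrocyte and radial glia-like class had 8 (14.0%, against 6.88%). Fibroblast-like and mural-like cells had 4 each (7.02%), near the 7.63% and 6.78% of all genes. Those highest in intermediate progenitor-like cells included HES6, DNER and NUMBL, and those of the astrocyte and radial glia-like class HES1, HES4 and TCF7L1. In endothelial-like cells LEF1, a DNA-binding factor of the Wnt pathway, had a median of 1086 CPM (829 to 1410), and APCDD1, a Wnt inhibitor, had 480.4 CPM (206 to 537). TSPAN12, a partner of FZD4, had 229.7 CPM (46.1 to 315) and ADAM10, which cuts NOTCH, had 589 CPM (254 to 718). Mural-like cells held FRZB, a relative of the SFRP inhibitors, at 346 CPM (107 to 428). Fibroblast-like cells held LGR4, a receptor of R-spondins, at 370.4 CPM (234 to 433), and ROR1 and ROR2, receptors of WNT5A, at 177 CPM (105 to 236) and 160.1 CPM (64.3 to 237).

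The E60 libraries differed within a class, and the astrocyte and radial glia-like cells are described first. With 1 CPM added to each value, 10 of the 26 genes that reached 10 CPM in an E60 library were at least 2-fold higher there in both E60_1 and E60_2 than in E60_3 (38.5%), against 5.89% of all genes. These were WNT5A, FZD2, FZD3, FZD10, DKK1, RSPO3, DLL1, DLL3, LFNG and HEY1. Some of them reached 10 CPM in only 1 of these libraries. WNT5A, FZD2, FZD10, DKK1, RSPO3, DLL1 and DLL3 were at 0 to 3.24 CPM in E60_3. They passed the 10 CPM level through E60_1 or E60_2 alone, where they were high. The share of higher members is therefore not read as a result. In E60_1, E60_2 and E60_3 FZD2 was at 14.2, 3.53 and 0 CPM and FZD10 at 3.88, 18.95 and 1.39 CPM. DLL3 was at 2.09, 14.8 and 0 CPM and RSPO3 at 5.08, 186 and 1.85 CPM in the same order. At least 2-fold lower in both were 3 of 26 (11.5%), namely SFRP1, RSPO2 and JAG1, against 12.4% of all genes. The libraries were set side by side because they were known to differ, so these counts carry no test.

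WNT5A in this class was at 31.8, 27.6 and 1.39 CPM in E60_1, E60_2 and E60_3 and at 2.55 CPM in E70_3. DKK1 (chr14:97487854-97490118), an inhibitor of LRP co-receptors, was at 22.7, 14.1 and 1.85 CPM and 5.45 CPM in the same order. SFRP1 went the other way, at 137, 23.5 and 415 CPM and 217 CPM. E60_1 and E60_2 also differed from each other. RSPO3 was at 186 CPM in E60_2 and 5.08 CPM in E60_1, and WNT3 was at 81.9 and 3.14 CPM. In the erythroid-like cells of E60_2, RSPO3 and WNT3 were at 21.1 and 17.1 CPM, and the part of free RNA in these values was not tested.

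The class was made of different clusters in these libraries. Clusters 5 and 6 held 835 and 872 of its cells in E60_1 and 400 and 184 in E60_2, while cluster 19 held 162 in E60_3 and 190 in E70_3. Within cluster 6, which all of these libraries shared, DKK1 was at 40.5, 28.4, 11.5 and 17.5 CPM in E60_1, E60_2, E60_3 (26 cells) and E70_3 (105 cells), and at 42.8 CPM in E50_1. WNT5A within cluster 6 was at 25.7, 25.3, 0 and 1.25 CPM in the same E60 and E70 libraries. The E60_3 values rest on 26 cells, and the part of cluster make-up in the differences between libraries was not tested. In cluster 5, WNT3 was at 92.8 CPM in E60_2, 3.02 CPM in E60_1 and 22.8 CPM in E50_1, and RSPO3 was at 261, 8.47 and 69.1 CPM.

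**Figure D3:**
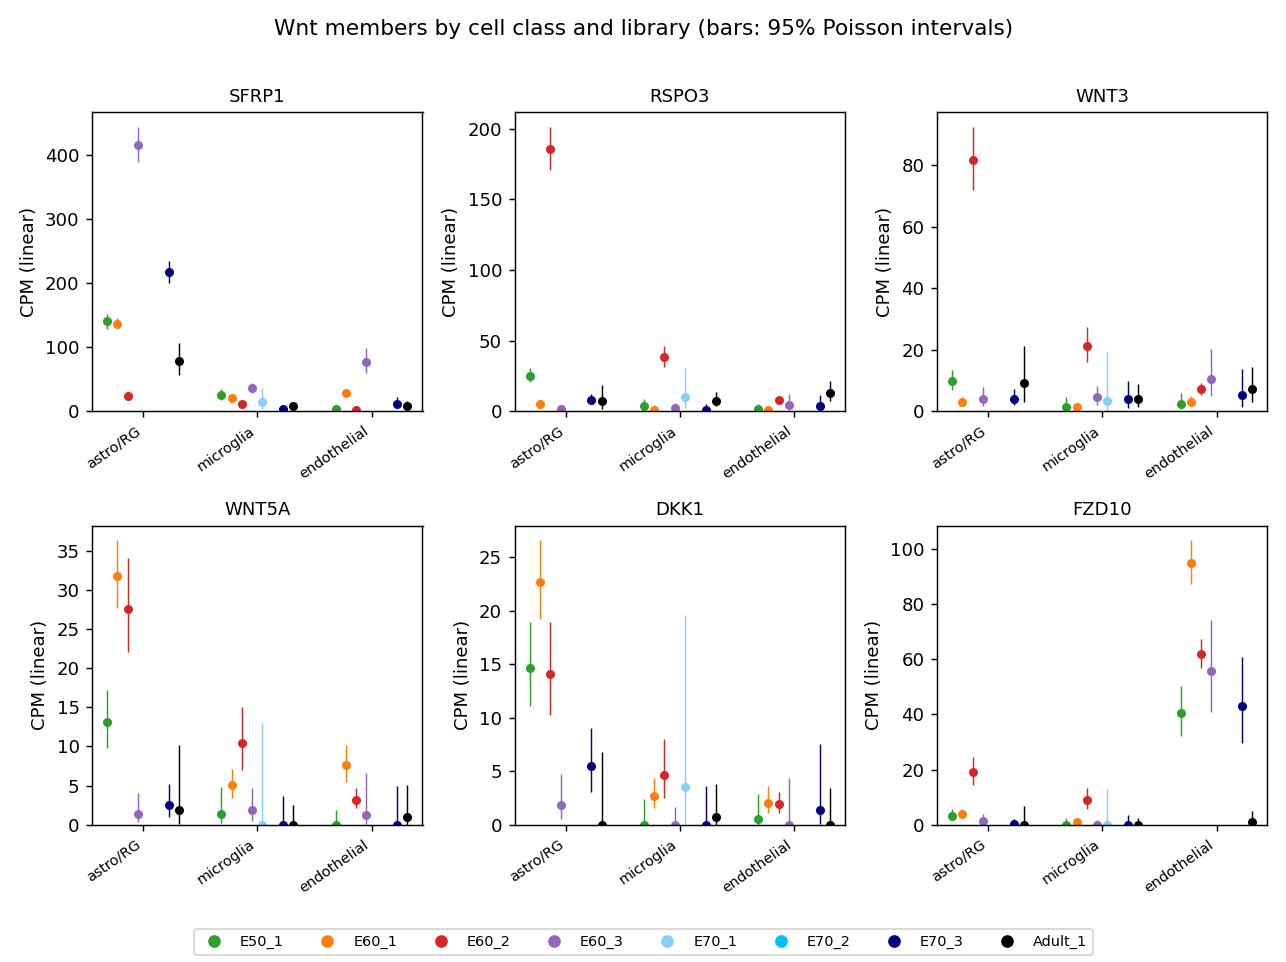
Level of 6 Wnt genes (panels) in CPM on a linear axis, by cell class and whole cell library (colours), with exact Poisson 95% intervals. Among astrocyte and radial glia-like cells, WNT5A and DKK1 are higher in E60_1 and E60_2 than in E60_3, SFRP1 is lower, and RSPO3 (186 CPM) and WNT3 (81.9 CPM) are high in E60_2.

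In endothelial-like cells, HEY1 and LFNG (2 of 20 genes) were at least 2-fold higher in E60_1 and E60_2 than in E60_3, against 7.81% of all genes, and FZD4, DKK3, SFRP1, RSPO2 and WNT7B (5 of 20) were lower, against 13.6%. In microglia-like cells 5 of 17 genes (29.4%) were higher, against 7.49%, and RSPO2 was lower, against 15.4%. The 5 were WNT5A, SFRP2, NOTCH3, HEY1 and HEY2. All of them were at 1.83 to 2.75 CPM in E60_3 and passed the 10 CPM level through E60_1 or E60_2 alone. This share is therefore not read as a result either. HEY1 read 13.4, 16.2 and 1.83 CPM in the microglia-like cells and 13.8, 12.7 and 0 CPM in the erythroid-like cells of E60_1, E60_2 and E60_3, and erythroid-like cells should lack it. HEY2 read 18.6, 24.9 and 2.75 CPM in the former and 10.8, 9.08 and 0 CPM in the latter. Both genes thus differed between libraries in erythroid-like cells too, and the part of free RNA was not tested. Over all cells, 5 of 24 genes were higher (20.8%), against 6.22%, and 2 of 24 were lower (8.33%), against 12.4%. Of the 5 higher genes only NOTCH3 reached 10 CPM in E60_3 (12.7 CPM), so the share of higher members is again not read as a result.

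To ask what differed between E60 and E70, UMIs were summed over all cells of each library and tested with edgeR's quasi-likelihood test, with p-values adjusted over all genes by the Benjamini-Hochberg method. The test called 0 of the 46 members tested at an adjusted p of 0.05, and 0% of all 16743 genes. The lowest adjusted p among the members was 0.122. At an unadjusted p under 0.05 there were 20 of 46 (43.5%), of which 13 were lower and 7 higher at E70, against 29.4% of all genes. Of the 61 other pathway genes tested, 16 were at that level, 14 of them lower and 2 higher. DESeq2 called 16 of the 46, 11 lower and 5 higher at E70, where it called 16.9% of all genes, and all 16 were among the 20. In sums over all cells, fewer cells of a type and less RNA per cell cannot be told apart.

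FZD10 had the lowest p. It was at 18.9, 31.1 and 7.03 CPM in E60_1, E60_2 and E60_3 and at 2.69, 1.44 and 2.44 CPM in E70_1, E70_2 and E70_3, with a log2 fold change of E70 over E60 of -3.39 ± 0.66 (SE) and an edgeR adjusted p of 0.122. The groups did not overlap. Endothelial-like cells, where FZD10 was highest, numbered 606, 710 and 42 in the E60 libraries and 8, 8 and 40 in the E70 libraries, and within them FZD10 was at 55.8 to 94.98 CPM at E60 and at 43.2 CPM in E70_3.

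JAG1 was at 59.0, 99.6 and 35.3 CPM in E60_1, E60_2 and E60_3 and at 22.8, 22.3 and 24.1 CPM in E70_1, E70_2 and E70_3 (log2 fold change -1.75 ± 0.46, edgeR adjusted p = 0.122). NOTCH3 was at 34.9, 38.8 and 12.7 CPM and 8.39, 3.60 and 9.62 CPM in the same order (-2.26 ± 0.58, edgeR adjusted p = 0.122). The groups did not overlap for either gene, and mural-like cells, where both were highest, numbered 105, 32 and 4 at E60 and 0, 0 and 3 at E70. NOTCH2 was at 95.4, 65.0 and 72.8 CPM against 38.6, 22.4 and 48.5 CPM (-1.29 ± 0.35, edgeR adjusted p = 0.122). LFNG was at 42.8, 41.0 and 8.54 CPM against 6.33, 5.90 and 6.82 CPM (-2.54 ± 0.64, edgeR adjusted p = 0.122). E60_3 was the E60 library closest to E70 for JAG1, NOTCH3 and LFNG. HEY1 was at 56.8, 60.5 and 9.83 CPM against 7.29, 5.61 and 12.0 CPM, so that E60_3 lay within the range of E70.

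Leaving out E60_3 brought 21 members past an adjusted p of 0.05, 13 lower and 8 higher at E70, where 34.7% of all genes were called. Leaving out E70_3 gave 5, with WNT2, WNT7B and DKK2 higher and HEY2 and NOTCH2 lower, where 9.23% of all genes were called. Leaving out E60_1 and E60_2 together left 1 E60 library, so its calls are not counted. The median log2 fold change of the members was then -0.0761, against -0.469 with all libraries. E60_1 was sequenced in a pool with E70_1, and E60_3 with E70_3. Between E60_1 and E70_1, 20 of the 26 members that reached 10 CPM in either differed by at least 2-fold with 1 CPM added, 10 higher and 10 lower at E70, against 42.8% of all genes. Between E60_3 and E70_3 the count was 0 of 17, against 1.89% of all genes.

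**Figure D4:**
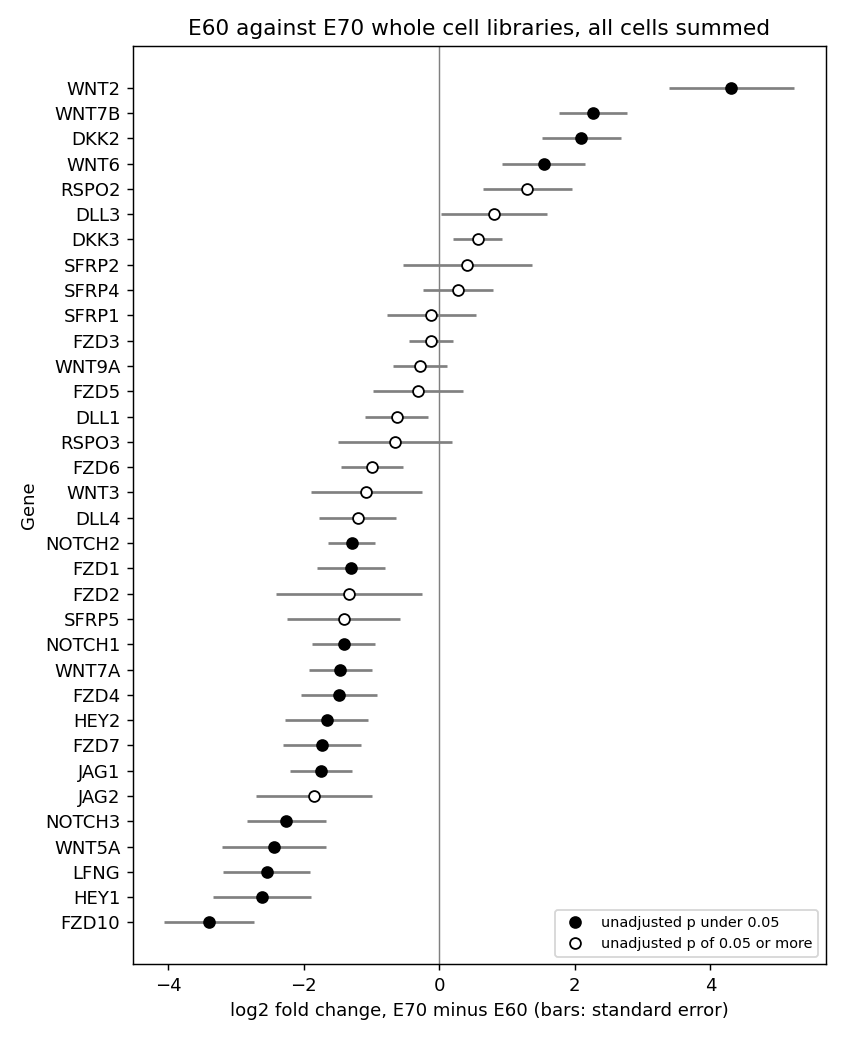
Log2 fold change of E70 over E60 for the 34 genes that reached 10 CPM in a class, from edgeR over all cells of 3 E60 and 3 E70 whole cell libraries. Bars are standard errors and filled points have an unadjusted p under 0.05. FZD10 is lowest (-3.39) and WNT2 highest (4.31), and no gene passed an adjusted p of 0.05.

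Within classes, 3 comparisons could be made. In microglia-like cells (3 against 2 libraries) edgeR called 0 of 24 members (0% of 12630 genes), and 9 had an unadjusted p under 0.05, 7 lower and 2 higher at E70, against 10.9% of all genes. Of the lower ones, DLL1, FZD1, HEY1, NOTCH3 and WNT5A had means of 4.88 to 10.5 CPM at E60 and 0 CPM at E70. They passed the filter on low counts through E60 alone, and E70_1 held only 20 such cells. The share of members is therefore not read as a result. In interneuron-like cells (2 against 3) it called 0 of 10 (0% of 10390 genes), and 2 were under 0.05, against 10.7%. In astrocyte and radial glia-like cells, with E70_1 and E70_2 let in at 12 and 19 cells after the cell numbers were seen, it called 0 of 29 (0% of 12577 genes), and 4 were under 0.05, against 10.4%. DESeq2 called 1 member in each class, which was WNT7B, where it called 2.53% of all genes in microglia-like, 1.92% in interneuron-like and 3.43% in astrocyte and radial glia-like cells. WNT7B was also the member called without E70_3 in each class (1.19%, 6.65% and 4.68% of all genes in the same order) and with no filter on low counts in interneuron-like cells (1.64%), and WNT5A was called without E60_3 in the astrocyte and radial glia-like class (0.662%). Endothelial-like, mural-like and oligodendroglia-like cells had fewer than 2 libraries of 20 cells at E70 and were not tested.

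WNT7B (chr5:3521412-3572322), a ligand known from the cortex, differed between libraries more than between classes. Over all cells it was at 31.0 CPM in E50_1, 25.6, 36.3 and 63.9 CPM in E60_1, E60_2 and E60_3, 328, 259 and 94.2 CPM in E70_1, E70_2 and E70_3 and 200.5 CPM in the adult, and at 238 and 299 CPM in the E70 and adult nuclei. Over the classes of a library it ranged from 77.5 to 101 CPM in E70_3 and from 52.4 to 71.1 CPM in E60_3, and more widely from 15.1 to 57.0 CPM in E60_2. In erythroid-like cells, which should lack WNT7B, it was at 291 CPM in E70_1 and at 80.2 CPM in E70_3, and in the microglia-like cells of these libraries at 334 and 77.5 CPM. Its highest class median was in oligodendrocyte-like cells, at 15.4 CPM in E60_1 and 222 CPM in the adult, although these were the highest class in 0 of 2 libraries. No class was without it, so its source among the classes could not be read from these levels, and the part of free RNA was not tested. The log2 fold change of WNT7B was 2.26 ± 0.50 over all cells, 2.17 ± 0.49 in astrocyte and radial glia-like, 2.41 ± 0.62 in microglia-like and 2.28 ± 0.65 in interneuron-like cells, with edgeR adjusted p values of 0.122, 0.289, 0.356 and 0.460.

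WNT2 (chr18:28945825-28993969) had its highest class median in interneuron-like cells, at 12.0 CPM in E50_1, 11.8 and 6.83 CPM in E60_1 and E60_3 and 24.9, 34.9 and 11.3 CPM in E70_1, E70_2 and E70_3. These were the highest class in 2 of 6 libraries. WNT2 was at 128 and 125 CPM over all cells of E70_1 and E70_2 and at 1.93 to 9.16 CPM in the other 6 whole cell libraries. Of its UMIs, 600 of 806 in E70_1 (74.4%) and 664 of 867 in E70_2 (76.6%) lay in the erythroid-like cells. All 36 and all 31 such cells of these libraries had WNT2, with a median of 14 and 20 UMIs per cell. In E70_3, 8 of 102 erythroid-like cells had a UMI of WNT2, and in the other whole cell libraries at most 11 did. In excitatory neuron-like cells WNT2 was at 28.1 and 31.8 CPM in E70_1 and E70_2 and at 9.55 to 11.5 CPM in E50_1, E60_3 and E70_3. The log2 fold change of WNT2 over all cells was 4.31 ± 0.92 (edgeR adjusted p = 0.122), and E70_3 with 9.16 CPM lay close to the E60 values of 1.93 to 6.12 CPM.

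DKK2, DLL3, RSPO1, RSPO2 and WNT2B were, like WNT2 and WNT7B, higher over all cells in both E70_1 and E70_2 than in every other whole cell library. These were 7 of the 32 members that reached 10 CPM in a library, and 18.2% of all 13885 such genes had the same pattern, a share near that of the members. E70_1 and E70_2 were the whole cell libraries of fewest cells, with 493 and 617. DKK2 was at 40.7 and 40.7 CPM there, against 3.42 to 17.5 CPM in the others, and RSPO2 at 35.3 and 24.9 CPM against 2.95 to 21.3 CPM.

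**Figure D5:**
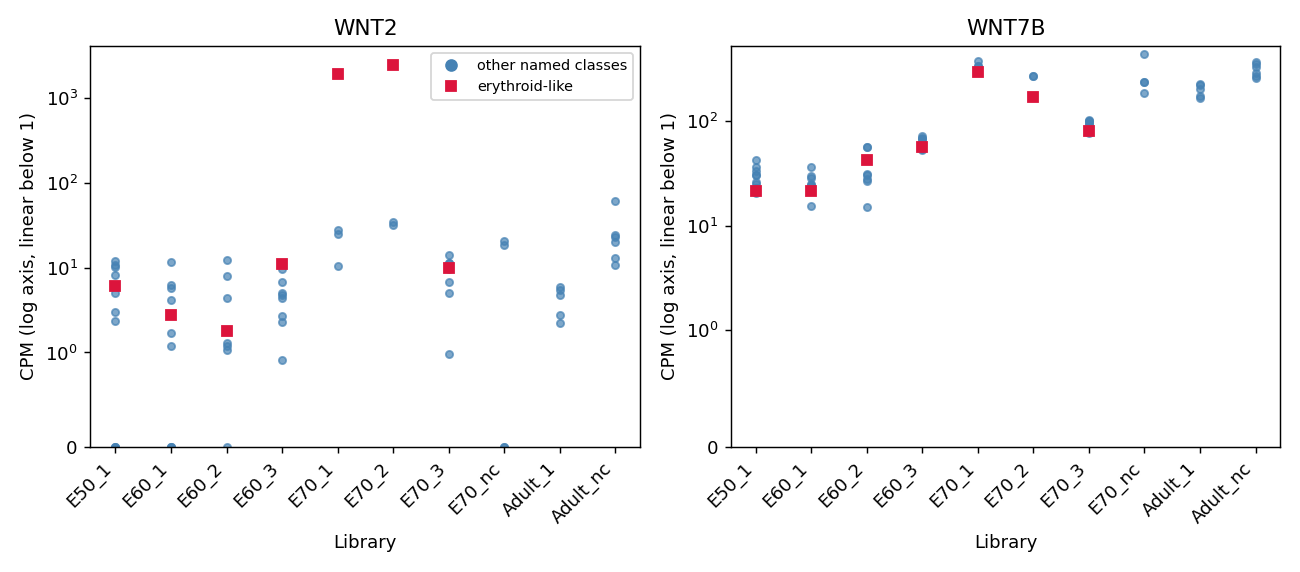
Level of WNT2 and WNT7B in each named cell class (points) of the 10 libraries, in CPM on a log axis that is linear below 1. Squares are erythroid-like cells and circles are other classes of at least 20 cells. The WNT2 squares of E70_1 and E70_2 lie at 1961 and 2473 CPM, and the WNT7B points of E70_1 lie between 291 and 371 CPM.

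Several members lay outside their fetal range in the adult, which had 1 whole cell library and no test. A single value often falls outside the range of few libraries, and the share of all genes that did so was not counted. The fetal range of mural-like cells rests on E50_1, E60_1 and E60_2 alone. The values below are therefore not read as a trait of the adult. HEY2 in the astrocyte and radial glia-like class was at 18.3 CPM against 56.7 to 112 CPM in the fetal libraries. In endothelial-like cells JAG1 was at 57.1 CPM against 102 to 188 CPM, and NOTCH3 at 1.84 CPM (95% interval 0.223 to 6.66) against 10.2 to 33.9 CPM. In mural-like cells NOTCH3 (240.2 CPM) and HEY2 (169 CPM) were likewise below every fetal value, at 313 to 494 CPM and 198 to 241 CPM. Others of these cells lay above, with SFRP4 at 41.5 CPM against 0 to 26.4 CPM, FZD7 at 29.7 CPM against 0 to 6.59 CPM and WNT6 at 26.7 CPM against 0 CPM in each fetal library. These levels stand on few UMIs, since the mural-like cells held 337164 UMIs in the adult and 198434 in E60_2. WNT6 was also at 17.2 CPM in cluster 28, which was oligodendrocyte-like and took 56.7% of its cells from the adult whole cells. NOTCH1, DLL4 and FZD4 in adult endothelial-like cells (73.7, 58.0 and 39.6 CPM) lay within their fetal ranges.

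Nuclei of E70 were set beside whole cells of E70. In interneuron-like cells RSPO2 was at 127 CPM in nuclei and at 28.0, 42.4 and 55.8 CPM in E70_1, E70_2 and E70_3, and FZD3 was at 160.2 CPM against 87.3, 53.6 and 59.9 CPM. SFRP1 went the other way in excitatory neuron-like cells, at 9.40 CPM in nuclei against 52.4, 76.8 and 85.8 CPM in whole cells. With 1 library of E70 nuclei these differences could not be tested.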

How the data were processed

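Suspensions of single cells or nuclei were sequenced by the authors with 10X 3′ chemistry, demultiplexed and counted with Cell Ranger and mapped with STAR to pre-mRNA of Sscrofa11.1 (Ensembl annotation), so intronic reads count. The deposited tables hold raw UMI counts per gene and cell, with no normalization. The members and gene lists were chosen with earlier results of these data known. A member is named with its values where its median reached 10 CPM in a class or a comparison called it. A total of 224 member, pathway and marker genes were kept out of the 3000 variable genes. Libraries were merged on 50 principal components by mutual nearest neighbours and clustered by the Louvain method (resolution 1.6, scanpy 1.11.5) into 48 clusters. Counts were summed per library and class (at least 20 cells). edgeR 4.0.16 (TMM, filterByExpr, quasi-likelihood, two-sided) tested E60 against E70 with no covariate, and DESeq2 1.42.0 was an alternative. The edgeR test was first run on counts simulated with the same dispersion for every gene and no library that stood apart. That run does not show how the test behaves with the spread of these libraries. Scrublet's automatic threshold called 0 cells in E60_1 and E60_2, so doublets were kept, and an alternative left out the cells of highest score at the expected rate. Gene positions and upstream sequences are those of RefSeq on Sscrofa11.1, and some items are not reported here. Poisson intervals cover counting error only, and p-values cover the spread between these libraries, each of 1 to 3 brains.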

Additional observations from a re-analysis of the deposited data

How the results depend on the processing

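In the comparison of E60 and E70 over all cells, where edgeR called 0 members, DESeq2 called 16 and leaving out a replicate gave 0 to 21, with 21 without E60_3 and 5 without E70_3. In astrocyte and radial glia-like cells DESeq2 called 1 (3.43% of all genes) and leaving out a replicate gave 0 to 1, which was WNT5A without E60_3 (0.662% of all genes) and WNT7B without E70_3 (4.68%). In microglia-like cells DESeq2 called 1 (2.53%) and leaving out a replicate gave 0 to 1, which was WNT7B without E70_3 (1.19%). In interneuron-like cells DESeq2 (1.92%) and no filter on low counts (1.64%) each called 1, and leaving out a replicate gave 0 to 1, which was WNT7B without E70_3 (6.65%). RLE normalization and leaving out doublets called 0 members in each of the 4 comparisons. Leaving out both E60_1 and E60_2 could be run in 3 comparisons, which exclude interneuron-like cells. It left 1 E60 library in each, so its calls are not counted. The replicate block called 0 members in each comparison. Numbers 1 and 3 each share a sequencing pool across E60 and E70 and number 2 does not. Same-numbered libraries correlated at -0.171, 0.0322 and -0.126, and not every library correlated best with its own number, so the numbers were not taken as pairs. Clusters made within each library left too few astrocyte and radial glia-like libraries for a value, as did the single cluster tried after seeing the data.

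The astrocyte and radial glia-like class was highest for 2 members, for 9 with clusters made within each library, 8 without batch correction, 0 without E60_1 and E60_2 and 4 without E70_1, E70_2 and the adult. Members reaching 10 CPM in a class numbered 34 to 36 under every other clustering or choice of libraries run. Of those reaching it in both, the highest class was the same for 23 of 34 with clusters made within each library, 26 of 34 without batch correction, 32 of 34 without doublets, 32 of 33 with means over cells, 31 of 34 with nuclei, 28 of 33 without E60_1 and E60_2 and 31 of 33 without E70_1, E70_2 and the adult, the last chosen after seeing the data. With clusters made within each library, and without batch correction, mural-like cells were named in the adult alone, and HEY2 was then highest in astrocyte and radial glia-like and NOTCH3 and JAG1 in endothelial-like cells. Depth limits classes of few cells: 3 UMIs in the mural-like cells of E60_2 make 15.1 CPM.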

Other observations

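Several clusters that no marker list named held Wnt and Notch genes at high levels. They are described by their leading genes, with levels summed over all libraries. A cluster of 447 cells led by RGS5, FOXF2 and IGFBP7 had JAG1 at 196 CPM, NOTCH3 at 128 CPM, NOTCH1 at 114 CPM, DLL4 at 74.7 CPM and FZD10 at 61.7 CPM. It scored high for both the endothelial and the mural list, and its cells held a median of 14496 UMIs, 2.65 times that of their libraries. Doublets were kept, and their part in this cluster was not tested. A cluster of 745 cells, whose 10 leading genes included AK7, RSPH1 and CFAP126 of motile cilia, took 97.6% of its cells from E60_1. It had FZD3 at 223 CPM, SFRP2 at 161 CPM, LFNG at 77.3 CPM and WNT5A at 51.0 CPM. A cluster of 120 cells, 94.2% from E60_1, was led by TTR and also held FOXJ1 among its leading genes, and had SFRP1 at 439.7 CPM, HEY2 at 141 CPM and LFNG at 91.7 CPM.

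A cluster of 180 cells led by RCVRN, with SAG and PRPH2 among its leading genes, which are genes of photoreceptors, had SFRP2 at 338 CPM, DKK3 at 251 CPM and RSPO2 at 62.8 CPM. SFRP2 was at 507 CPM in its 31 cells of E70_1, 146 CPM in its 67 cells of E50_1 and 201 CPM in its 82 cells of E70_3. A cluster of 198 cells led by DBX1, 76.3% from E50_1, had WNT7A at 145 CPM. A cluster of 914 cells led by KCNIP3, OLIG1 and EGFR had DLL3 at 52.4 CPM and DKK1 at 22.8 CPM, and DLL3, which was kept out of the clustering, was itself among its 10 leading genes.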
